A study of Rattus norvegicus with 8 samples.

Results

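Of the 8 two-channel arrays of the series, 4 measured how parental RIE cells responded to TGF-beta-1, a transforming growth factor, and these 4 are described here. They were taken by their labels, and each array of the line was used. The RIE line comes from rat intestinal epithelium. On every array, RNA of cells treated for 1 hr with TGF-beta-1 at 2 ng/ml was set against RNA of control cells of the same line, and a value is the log2 of treated over control. The other 4 arrays did the same in RIE-Ras cells. These are RIE cells stably transfected with pSV2-H-Ras(12V), a plasmid that makes a constitutively active human H-Ras. The labels give neither the passage nor the strain of the cells, and they do not say whether RIE-Ras is a single clone. They number the RIE samples and experiments from 1 to 4 and name no separate cultures. A p-value here rests on how far samples of one line differ from each other, pooled over both lines in the main fit. That spread may be technical variation.

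TGF-beta-1 binds a pair of serine/threonine kinase receptors, and the type I receptor phosphorylates Smad2 and Smad3. These join Smad4, enter the nucleus and change transcription with partner factors. Smad7, made in response, blocks the type I receptor and so closes a feedback loop. In intestinal epithelium TGF-beta is known as an inhibitor of proliferation. Its early target genes include feedback inhibitors, AP-1 subunits and repressors of the helix-loop-helix family.

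Averaging features that share a gene symbol left 17402 features, 9652 of them named, and each array was centred on its median. Without centring, the RIE mean of the median feature was 0.35, and all ratios below are relative to their array's median. Before centring the medians of RIE replicates 1 to 4 were 0.23, 0.38, 0.37 and 0.45 on the log2 scale. Replicate 2 had the narrowest spread, with an SD from the median absolute deviation of 0.24, and replicate 4 the broadest, at 0.55. Across features, replicates 3 and 4 correlated with r = 0.69 and had the same sign at 77.2% of features, whereas replicates 1 and 4 correlated with r = 0.08 and had the same sign at 49.9%. The other 4 pairs lay between r = 0.12 and 0.36. Features are not independent replicates, so these values are descriptions. The arrays read RNA of whole cultures, so a change in every cell and a change in some of the cells cannot be told apart. Ratios hold no level of expression, so the epithelial label could not be checked against marker levels. Of the listed markers of intestinal epithelium 8 of 11 were measured, and their RIE means ran from -0.16 to 0.30 with a median of 0.03. Lists for fibroblasts, immune cells, endothelium, neural cells and smooth muscle had medians between -0.03 and 0.19. No marker passed the test used below, and an unadjusted p under 0.05 was found for 0 of the 8 epithelial markers and for 4 of the 27 others, against 17.5% of all features.

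The promoter windows of 3 genes that stood above 1 on all 4 RIE arrays are shown, because these are the named genes with the strongest ratios on every array. The sequences are RefSeq's on build GRCr8, from 250 bases before the start to 50 after it. Capitals mark matches on either strand to GTCTAGAC (a Smad palindrome), GGCGCC (a GC-rich Smad site), GTCTG (a short Smad-binding element), CACGTG (an E-box), TGANTCA (an AP-1 site) and TGACGTCA (a CRE).
Smad7: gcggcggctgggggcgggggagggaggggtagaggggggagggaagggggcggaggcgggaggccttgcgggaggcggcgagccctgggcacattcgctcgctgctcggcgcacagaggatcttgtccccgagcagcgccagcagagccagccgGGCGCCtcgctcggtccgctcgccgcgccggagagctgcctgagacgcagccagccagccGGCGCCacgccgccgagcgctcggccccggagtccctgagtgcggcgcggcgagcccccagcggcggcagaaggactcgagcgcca
Gadd45b: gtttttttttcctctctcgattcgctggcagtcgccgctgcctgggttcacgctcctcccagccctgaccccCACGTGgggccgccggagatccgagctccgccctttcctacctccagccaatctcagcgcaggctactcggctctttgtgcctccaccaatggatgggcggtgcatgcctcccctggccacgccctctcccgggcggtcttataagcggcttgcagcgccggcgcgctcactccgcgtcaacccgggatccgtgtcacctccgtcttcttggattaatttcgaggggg
Bhlhe40: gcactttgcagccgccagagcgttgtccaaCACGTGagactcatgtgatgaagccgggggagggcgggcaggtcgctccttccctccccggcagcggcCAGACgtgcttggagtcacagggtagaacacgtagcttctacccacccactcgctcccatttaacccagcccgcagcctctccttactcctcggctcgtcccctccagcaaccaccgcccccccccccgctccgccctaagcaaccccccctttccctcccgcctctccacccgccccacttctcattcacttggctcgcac

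The Smad7 window lay at chr18:71263258-71263557 on the plus strand and held GGCGCC at -96 and -36 from the start. The Gadd45b window lay at chr7:9430669-9430968 on the minus strand, with CACGTG at -178. The Bhlhe40 window lay at chr4:143174200-143174499 on the plus strand, with CACGTG at -220 and GTCTG, read on the other strand as CAGAC, at -152. The window of Junb, described with these genes below, held none of the 6 motifs. Over all 33469 windows of the table, GTCTAGAC stood in 0.197%, GGCGCC in 11%, GTCTG in 50.1%, CACGTG in 6.42%, TGANTCA in 7.33% and TGACGTCA in 1.83%. Among the 26 windows found for 22 early TGF-beta target genes the counts were 0, 4, 14, 2, 2 and 2. Of the 9 named genes that passed the test below as lower, 6 had a window, and there the counts were 0, 2, 5, 0, 1 and 1. A match is a description of these letters and not a measured site, and the arrays say nothing of binding.

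The first question was which transcripts had moved in RIE cells after 1 hr. In limma, with an adjusted p under 0.05 as the threshold, 13 of the 17402 features passed, which is 0.0747% of those tested. Of these 3 were higher (0.0172%) and 10 were lower (0.0575%), and 11 were named. Adjusted p-values of the calls lay between 0.0345 and 0.0493, so all were close to the threshold, while 3052 features (17.5%) had an unadjusted p under 0.05, with 6.03% of all features higher and 11.5% lower at that level.

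Smad7, the inhibitory Smad, stood at 2.59, 1.61, 1.45 and 1.55 on RIE replicates 1 to 4. All 4 arrays were far above 0, and replicate 1 lay well above the others. Smad7 rose by 1.80 ± 0.19 (moderated SE, n = 4), a 3.48-fold change with a limma adjusted p of 0.0345. Gadd45b, a stress-induced gene of growth arrest signalling, had ratios of 2.49, 1.66, 1.44 and 1.10. Replicate 1 was again the highest, and the lowest array was replicate 4. Gadd45b rose by 1.67 ± 0.21, a 3.18-fold change (adjusted p = 0.0493). The third rise was feature 9197 of the array, which has no gene name here. Its ratios of 3.10, 3.59, 2.94 and 3.20 were the closest to each other among the rises, and its mean was 3.21 ± 0.33 (adjusted p = 0.0345).

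Gstp1, a glutathione transferase that conjugates electrophiles, showed the largest mean fall among the calls, with -3.17, -2.15, -1.33 and -1.59. The arrays spread over more than a log2 unit, with replicate 1 the lowest. Its mean was -2.06 ± 0.27, a ratio of 0.24 (adjusted p = 0.0493). Feature 16683, also unnamed, stood at -1.26, -1.28, -2.05 and -2.63, with replicates 3 and 4 lower than replicates 1 and 2, and fell by 1.80 ± 0.22.

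Of the 9 named falls, 4 encode cytosolic ribosomal proteins. Rpl32, of the large subunit, had ratios of -1.71, -2.45, -1.13 and -1.69 and a mean of -1.75 ± 0.21. Rpl27, also of the large subunit, had -1.48, -1.88, -1.28 and -2.27 and a mean of -1.73 ± 0.16. Rps24, of the small subunit, had -1.50, -2.07, -1.05 and -1.26 and a mean of -1.47 ± 0.17. For all 3 the array nearest to 0 was replicate 3. Rplp0, a protein of the ribosomal stalk, lay closer to 0, at -0.99, -0.90, -0.80 and -1.47, with a mean of -1.04 ± 0.13. Rpl27 and Rplp0 are each an average of 2 features that differed in size and in their order over the arrays. The Rpl27 features had means of -2.26 and -1.20. On replicates 1 to 4 the first stood at -2.87, -3.10, -1.37 and -1.71, and the second at -0.10, -0.67, -1.20 and -2.84. The averaged ratios of Rpl27 were thus more even than those of either feature. Those of Rplp0 had means of -1.35 and -0.74, with the second near 0 on replicate 1, at 0.05.

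Nudc, which acts with the dynein motor in nuclear migration, stood at -1.60, -0.96, -1.17 and -1.67, with a mean of -1.35 ± 0.14. This value hides a disagreement, since one of its 2 features had a mean of -2.39 and the other of -0.30, and the second was positive on replicate 1, at 0.23. Plk2, a polo-like kinase of stress and cell cycle checkpoints, stood at -0.97, -0.73, -1.18 and -1.0. The SD over its 4 arrays was 0.18, and its mean was -0.97 ± 0.12. Rgs2, which shortens signalling by G proteins of the Gq class, stood at -0.93, -0.82, -1.10 and -0.61, with a mean of -0.87 ± 0.11 and features at -1.08 and -0.65. Coa4, an assembly factor of cytochrome c oxidase, had the smallest change among the calls and the most even one, at -0.86, -0.54, -0.72 and -0.81, with a mean of -0.73 ± 0.10.

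These 13 calls rested on a spread per feature that was estimated from both lines together. When the 4 RIE arrays were fitted alone, with 1 mean and no other line, feature 9197 was the only call (adjusted p = 0.00353), and the adjusted p was 0.184 for Smad7 and 0.192 for Gadd45b. Leaving out RIE replicates 1, 2, 3 and 4 in turn gave 30, 0, 3 and 0 calls, of which 7, 0, 1 and 0 were among the 13. Leaving out RIE-Ras replicates 1 to 4, which carry no RIE RNA, gave 3, 0, 1 and 0. All of the 13 kept their direction in each of these fits. Every array carried treated RNA in channel 2 and no dye swap is stated, so a dye effect of a feature and the treatment cannot be told apart within a line.

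**Figure D1:**
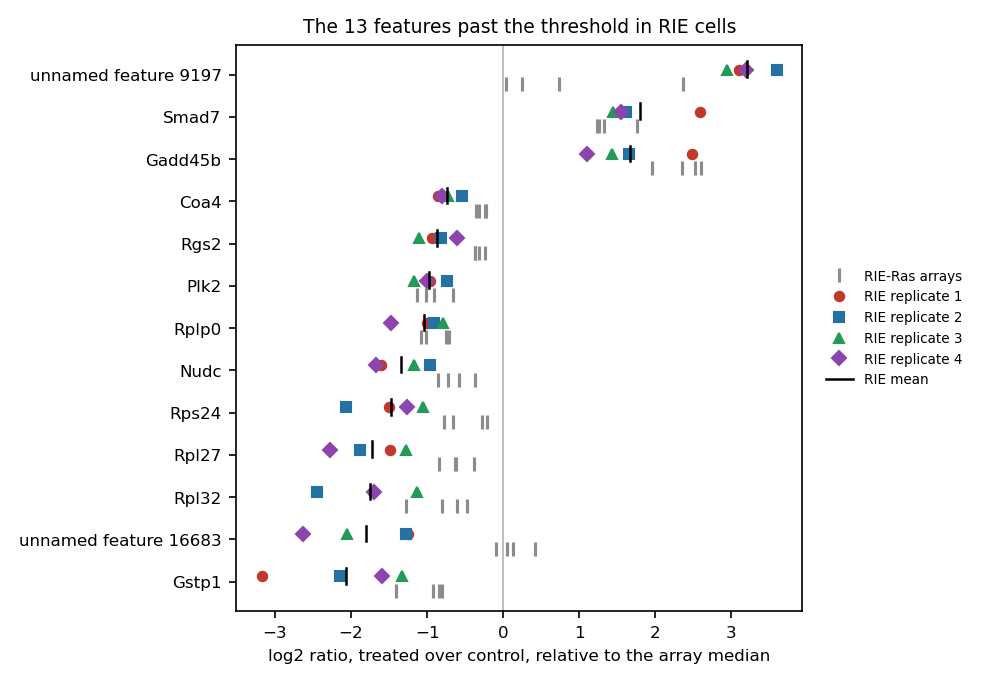
Log2 ratio of treated over control, relative to the array median, for the 13 calls in RIE cells. Coloured points are RIE replicates 1 to 4, black bars their mean, and grey ticks the 4 RIE-Ras arrays. Smad7 and Gadd45b lie above 1 on all 4 RIE arrays, and the 10 falls lie below -0.5.

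A second view asked which genes stood far from the array median on every array, by ranking named genes on their weakest RIE array. Here this choice is made on the ratios themselves, so the genes are described and not tested by it. In all, 2572 features were higher on all 4 arrays (14.8%) and 2486 were lower (14.3%). The weakest array was at 1 or above for 7 features, 3 of them named, and at -1 or below for 7, of which 5 were named. Bhlhe40, a transcriptional repressor and E-box binding protein, joined Smad7 and Gadd45b at the top with 2.65, 1.15, 1.21 and 1.04. Replicate 1 stood far above the other arrays, which lay close together. The mean of Bhlhe40 was 1.51 ± 0.24 and missed the threshold (adjusted p = 0.065), and without replicate 1 it was 1.13 with an adjusted p of 0.0318. In the fits without replicate 2, 3 or 4 no rise passed, Bhlhe40 included. Junb, an AP-1 subunit, had the same shape, at 3.63, 0.99, 1.26 and 1.21, with a mean of 1.77 ± 0.39 (adjusted p = 0.116). Vegfa, an angiogenic factor, stood at 1.93, 1.40, 0.85 and 0.97 (mean 1.29 ± 0.24, adjusted p = 0.0869).

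The other high genes in this ranking were not on the list of early TGF-beta targets used below. Dusp15, a dual-specificity phosphatase, stood at 1.21, 1.87, 1.01 and 0.98, with a mean of 1.27 ± 0.19 (adjusted p = 0.0649). B3gnt5, a glycosyltransferase of glycolipid synthesis, was almost constant over the arrays, at 1.06, 0.97, 0.91 and 0.94. Its adjusted p was 0.148, and 0.184 with the RIE arrays fitted alone, and its RIE-Ras arrays ran from -1.10 to 0.92. Synpo2, an actin-binding protein, had a mean of 1.34, but its 2 features had means of 2.33 and 0.36. Myo5b, a motor of apical vesicle transport, stood at 1.43, 0.76, 0.75 and 1.36 in RIE cells and from -1.72 to 3.83 on the RIE-Ras arrays. Chga, Htr1a and Csmd1, which are best known in neuroendocrine and neural cells, had RIE means of 1.69, 1.12 and 1.29. Their RIE-Ras arrays reached from -3.61 to 3.76 for Chga and from -4.36 to 3.44 for Htr1a, and their moderated SEs were 0.95 and 0.96.

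Among the low genes, Rps29, of the small ribosomal subunit, stood at -3.04, -2.86, -1.02 and -1.82, with a mean of -2.19 ± 0.30 (adjusted p = 0.0588). Rps23 stood at -0.77, -2.03, -1.03 and -1.50 (adjusted p = 0.0649). Col1a2, a chain of type I collagen, stood at -1.64, -2.95, -0.89 and -1.34, with replicate 2 the lowest (adjusted p = 0.0755). Fth1, the ferritin heavy chain that stores iron, stood at -1.17, -0.81, -1.40 and -1.92 (adjusted p = 0.0734). Clcn7, a chloride and proton exchanger of lysosomes, was even, at -0.85, -0.84, -1.02 and -1.18, with a mean of -0.97 ± 0.13 (adjusted p = 0.0588). Bpifa5 stood at -0.86, -1.08, -2.18 and -0.83. None of these 6 genes passed the threshold.

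**Figure D2:**
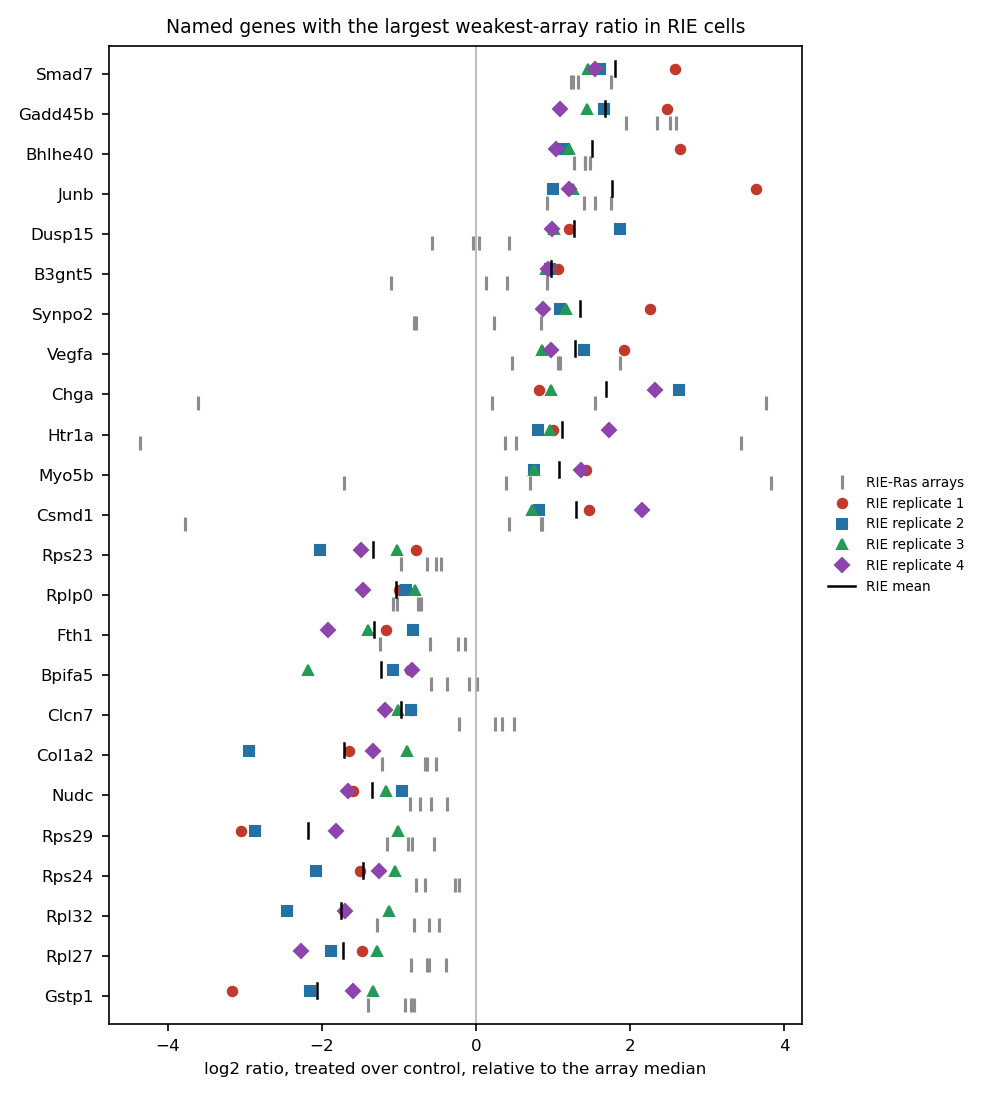
Log2 ratio of treated over control, relative to the array median, for the 12 named genes with the highest and the 12 with the lowest weakest-array ratio in RIE cells. Coloured points are RIE replicates, black bars their mean and grey ticks the RIE-Ras arrays. Replicate 1 is the highest array for Smad7, Bhlhe40 and Junb, and the RIE-Ras ticks of Chga and Htr1a reach beyond 3 on both sides of 0.

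Genes of the pathway itself were then taken by role. Of the ligands and latent binding proteins 17 of 20 were measured, and 7 had positive and 10 negative means, with a median of -0.12 against -0.0054 over all features. No ligand or binding protein passed in limma, and 3 of the 17 had an unadjusted p under 0.05, a share near the 17.5% of all features. Tgfb1, the gene of the added ligand, stood at 1.10, -0.07, -0.14 and 0.27, so its mean of 0.29 came from replicate 1. Tgfb2, a second isoform, was below 0 on every array, at -0.57, -0.42, -0.64 and -0.90 (mean -0.63 ± 0.12, adjusted p = 0.0869). Ltbp1, which holds latent TGF-beta in the matrix, was also below 0 throughout, with a mean of -0.53 ± 0.15. Inhba, the activin A subunit, lay above 0 throughout, between 0.23 and 0.50, and Bmp2, a bone morphogenetic protein, stood at 1.61 on replicate 1 and between 0.03 and 0.40 on the others.

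Receptors were measured for 10 of 14 genes, with 7 positive and 3 negative and a median of 0.09. Tgfbr1, the type I receptor of TGF-beta, was at 1.07, 0.59, 0.47 and 0.76. All 4 arrays were above 0, but the mean of 0.72 ± 0.17 missed the threshold (adjusted p = 0.131). Acvr1b, an activin type I receptor, had a mean of 0.40, with 0.02 on replicate 4. Acvr2b, an activin type II receptor, was below 0 on all 4 arrays, with a mean of -0.37 ± 0.14. No receptor passed, and 3 of the 10 had an unadjusted p under 0.05, against 17.5% of all features.

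The signalling Smads and their cofactors had a list median near the array median, while single means ran from -0.30 to 0.54. Of 12 listed genes 9 were measured, with 5 positive and 4 negative and a median of 0.01, which turned to -0.01 with equal spread per array and to -0.02 with quantile normalization. Smad4, the shared partner Smad, had the ratios 0.41, 0.04, 0.10 and 0.26. None passed, and 2 of the 9 had an unadjusted p under 0.05, 1 higher and 1 lower, against the same 17.5%.

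Feedback inhibitors and corepressors were highest on replicate 1. Of 15 listed genes 10 were measured, with 8 positive, 2 negative and 1 past the threshold, which was Smad7. Over all features 0.0747% passed. An unadjusted p under 0.05 was found for 4 of the 10, against 17.5% of all features. The median of the list was 0.69 on replicate 1 and 0.15, 0.10 and 0.16 on the others. Smad6, the inhibitory Smad of bone morphogenetic protein signalling, stood at 1.06, 0.33, 0.40 and 0.44 (mean 0.56 ± 0.14, adjusted p = 0.135). Tgif1, a Smad corepressor, was low but even, at 0.27, 0.38, 0.27 and 0.44. Nedd4l, a ubiquitin ligase of activated Smads, reached 1.78 on replicate 1 and stood between 0.18 and 0.47 on the others. Bambi, a decoy receptor, went the other way, at -1.07, -0.36, -0.10 and -0.11.

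**Figure D3:**
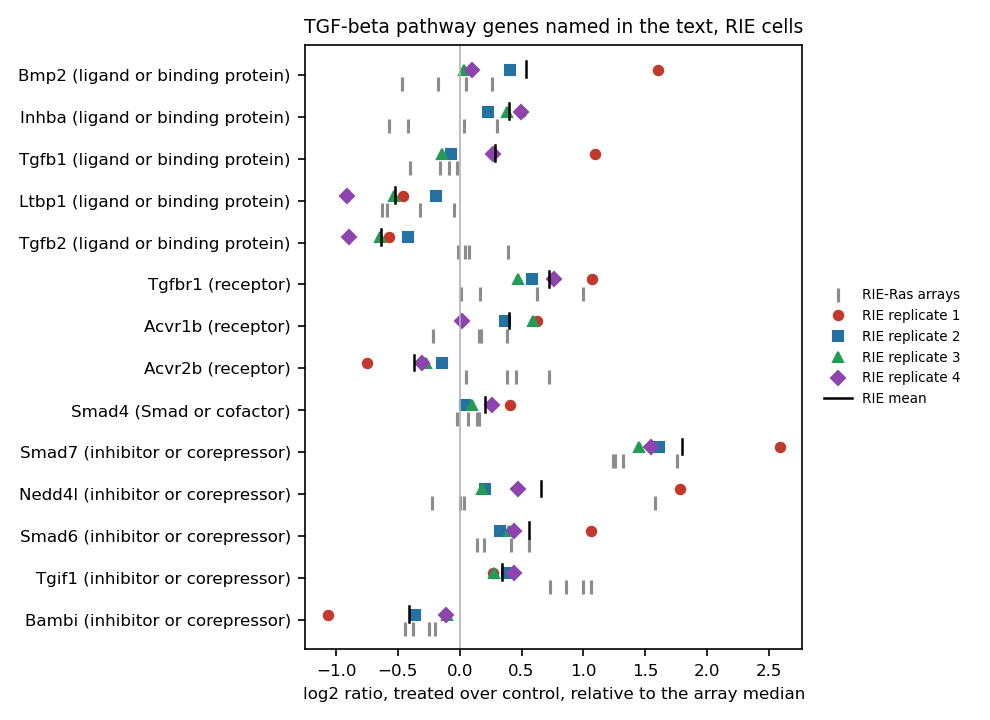
Log2 ratio of treated over control, relative to the array median, for TGF-beta pathway genes by role. Coloured points are RIE replicates 1 to 4, black bars their mean and grey ticks the RIE-Ras arrays. Smad7 stands apart at 1.45 and above on every RIE array, and Tgfb2 and Acvr2b lie below 0 on all 4 RIE arrays.

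Early TGF-beta target genes were mostly above the array median. Of 33 listed genes 28 were measured, 21 had a positive mean against 49.2% of all features, and 12 were higher on all 4 arrays against 14.8% of all features. None was lower on all 4. This list, like the others, was chosen with earlier results of these data known, so its shares are a description and not a test. The median was 0.20, and by array 0.46, 0.16, 0.20 and 0.11. Members past the threshold were Smad7 and Gadd45b, where 0.0172% of all features were higher. At an adjusted p under 0.10 Bhlhe40 and Vegfa also passed, where 0.172% of all features were higher. An unadjusted p under 0.05 was found for 8 of the 28, against 17.5% of all features. The other named members differed among themselves. Hes1, a repressor of the Notch pathway, stood at 0.91, 0.98 and 0.90 on replicates 1 to 3 and at 0.26 on replicate 4 (mean 0.77 ± 0.16, adjusted p = 0.111), with features at 0.49 and 1.04. Klf10, a zinc finger factor named for its early induction by TGF-beta, stood at 1.51, 0.90, 0.22 and -0.40, so its arrays lay on both sides of 0. Id1 and Id2, inhibitors of helix-loop-helix factors, had means of 0.06 ± 0.11 and -0.13 ± 0.14.

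The Gadd45 genes differed from each other. Against the 1.67 of Gadd45b, Gadd45a had ratios between -0.24 and -0.02 on the 4 arrays, and Gadd45g stood at 1.07, 1.04, -0.08 and -0.62. The differences between genes were not tested, and levels of different features are not compared here.

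Other transcription factors showed little common direction. Of the AP-1 and other immediate early genes 23 of 28 were measured, with 13 positive and 10 negative, and apart from Junb the named members were moderate. Nr4a2, an orphan nuclear receptor, stood between 0.25 and 0.84, and Zfp36l1, an mRNA decay factor, between -1.02 and -0.49. Myc, the growth-promoting factor that TGF-beta is known to repress in epithelial cells, was below 0 on every array, at -0.63, -0.28, -0.47 and -1.03 (mean -0.60 ± 0.14, adjusted p = 0.129). Of the Klf factors 9 of 11 were measured, and Klf13 had a mean of 0.57 ± 0.16. Among the Id, Hes and Bhlhe repressors, with 10 of 12 measured, Hes6 stood between -0.98 and -0.09. None of the members of these 3 lists passed, and 7 of 23, 3 of 9 and 3 of 10 had an unadjusted p under 0.05, against 17.5% of all features.

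Outputs and feedback regulators of the ERK pathway were measured for 19 of 24 genes, with 11 positive and 8 negative. No member passed the threshold, while at an adjusted p under 0.10 there were 1 higher and 2 lower. Over all features these shares were 0.172% and 0.586%. The higher one was Vegfa. Spry4, a feedback inhibitor of receptor tyrosine kinase signalling, stood at -0.63, -0.72, -1.04 and -1.28 (mean -0.92 ± 0.14, adjusted p = 0.065). Dusp6, the phosphatase that inactivates ERK, stood at -0.49, -0.83, -1.03 and -0.81 (mean -0.79 ± 0.12, adjusted p = 0.0649) and passed without replicate 1 (adjusted p = 0.0479). Without replicate 2 or replicate 4 no feature passed. Areg, an EGF receptor ligand, stood between -1.01 and -0.28. Of the growth arrest and G1 regulators 22 of 30 were measured, and 2 passed, Gadd45b higher and Plk2 lower. Plk3, a relative of Plk2, had a mean of 0.48 ± 0.18. Among 12 measured RGS regulators 1 passed, which was Rgs2. Over all features 0.0747% passed. Rgs1 and Rgs12 had means of 0.45 and -0.38, and Rgs7 stood between 0.49 and 2.30 with an SE of 0.64. In the ERK, growth arrest and RGS lists 5 of 19, 6 of 22 and 3 of 12 had an unadjusted p under 0.05. The share of all features was 17.5%.

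Genes of cell identity and matrix were then read, since TGF-beta is known for driving epithelial cells towards a mesenchymal state over days. Epithelial junction and keratin genes, 15 of 21 measured, had a median of 0.01 with 9 positive and 6 negative. Epcam, an epithelial adhesion protein, stood between 0.06 and 0.14. Mesenchymal genes and their regulators, 11 of 16 measured, had 3 positive and 8 negative means and a median of -0.39. By array the median was -0.08, -0.42, -0.62 and -0.59. Without centring the RIE mean of the median feature was 0.35, so the size of this list median depends largely on the centring. In this list 4 genes were lower on all 4 arrays against 14.3% of all features. S100a4, a calcium-binding protein of motile cells, stood at -0.69, -1.07, -1.44 and -1.94 (mean -1.28 ± 0.23, adjusted p = 0.08). Anxa2, Fn1 and Vim, which encode annexin A2, fibronectin and vimentin, had means of -0.72, -0.60 and -0.39. Of the genes of matrix and proteolysis 25 of 32 were measured, with a median of -0.05. Plau, the urokinase plasminogen activator, was above 0 on every array, at 0.74, 0.57, 0.36 and 1.10, while Col5a2 had a mean of -0.47. No member of these 3 lists passed, and 1 of 15, 4 of 11 and 7 of 25 had an unadjusted p under 0.05, against 17.5% of all features.

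Arpc2, a subunit of the actin-nucleating Arp2/3 complex, had a mean of -0.80 ± 0.15 (adjusted p = 0.0869). Tpm3, a tropomyosin, had a mean of -1.19 that came from replicate 2, at -3.95, with the other arrays between -0.32 and -0.18. Among 22 measured NF-kappaB and inflammatory genes 9 were positive and 13 negative. Nfkbia, the inhibitor that holds NF-kappaB in the cytoplasm, was even, at -0.38, -0.67, -0.68 and -0.55 (mean -0.57 ± 0.10, adjusted p = 0.08). Ccl2 and Cxcl1, chemokines for monocytes and neutrophils, had means of -0.71 and -0.53, and the cytokine Il6 had a mean of 0.92 with an SE of 0.60. Apoptosis regulators, 24 of 28 measured, had a median of -0.03, with Bcl2, which protects cells, at 0.53 and Casp8, an initiator caspase, at -0.49. No member of the inflammatory and apoptosis lists passed, and 6 of 22 and 7 of 24 had an unadjusted p under 0.05, against 17.5% of all features.

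Lists of housekeeping genes had a median of RIE means below the array median, and their medians differed between arrays. On replicate 1 several of these lists stood above 0, up to 0.17 for glycolytic enzymes. Of 76 cytosolic ribosomal proteins 46 were measured, and 44 had a negative mean, against 50.8% of all features. Of these 30 were lower on all 4 arrays against 14.3%, 4 passed (Rpl27, Rpl32, Rps24 and Rplp0) against 0.0575%, and 37 were lower at an unadjusted p under 0.05 against 11.5%. The 2 positive members, Rpl34 at 0.34 and Rps3 at 0.01, were singled out after their values were seen. The median was -0.90, and it was -0.21 on replicate 1, -0.68 on replicate 2, -0.88 on replicate 3 and -1.61 on replicate 4. Rpl5 and Rps15 had a different order, with -3.46 and -2.89 on replicate 1 and -0.71 and -0.37 on replicate 3. The list median was -0.54 without centring and between -1.15 and -0.58 without one RIE replicate.

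Translation factors, 22 of 33 measured, had 20 negative means and a median of -0.38. Eef1b2 and Eif5a, factors of elongation, had means of -0.95 and -0.73, and Tpt1, a growth-related protein that binds elongation factors, had -1.12 with features at -1.52 and -0.72. For Eef1a1, the main elongation factor, the 2 features had means of -1.21 and 0.10. Subunits of the respiratory chain and ATP synthase, 40 of 55 measured, had 37 negative means and a median of -0.60. The list stood at 0.04 on replicate 1 and at -0.52, -0.68 and -1.23 on the others. Cox5b and Cox7a2, subunits of cytochrome c oxidase, stood at -0.93 and -0.82, and Atp5f1e, of the ATP synthase, at -0.99. Proteasome subunits, 29 of 31 measured, had 25 negative means and a median of -0.45, from 0.07 on replicate 1 to -1.10 on replicate 4. Psmb1 and Psmb4, of the core particle, had means of -1.07 and -0.77. Without centring the medians of these 3 lists were -0.02, -0.25 and -0.10. No member of these 3 lists passed in limma, and 13 of 22, 28 of 40 and 16 of 29 had an unadjusted p under 0.05, against 17.5% of all features.

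The same order of arrays, with replicate 1 the highest and replicate 4 the lowest, was also seen, among others, in 5 further lists. Their medians were -0.22 for glycolytic enzymes, -0.34 for glutathione and peroxide metabolism, -0.31 for heat shock and unfolded protein response, -0.33 for cell cycle and DNA replication and -0.34 for sterol and fatty acid synthesis. Without centring all 5 medians turned positive, between 0.02 and 0.14. In the glutathione list 1 of 30 measured members passed, which was Gstp1, against 0.0747% of all features. In the order given, 8 of 17, 14 of 30, 8 of 23, 13 of 27 and 9 of 23 had an unadjusted p under 0.05. The share of all features was 17.5%. Txn1, Prdx6 and Sod1, which reduce disulfides, peroxides and superoxide, had means of -1.0, -0.92 and -0.76. Among glycolytic genes Pkm, Pgam1 and Ldha had means of -0.995, -0.84 and -0.67, and Pfkfb3, which makes the activator of phosphofructokinase, had 0.44. Of the chaperones, Hspe1 and Cct5 had means of -0.97 and -0.86 (both with an adjusted p of 0.08), Hsp90aa1 had -0.48, and Ddit3, a factor of the unfolded protein response, had -0.55. Stmn1 and Plk1, which act on the mitotic spindle, had means of -0.89 and -0.74, and Cdc20, an activator of the anaphase-promoting complex, had -0.99, of which -2.58 came from replicate 2. Insig1, Fdft1 and Cyp51, of sterol control and synthesis, had means of -0.74, -0.62 and -0.59.

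**Figure D4:**
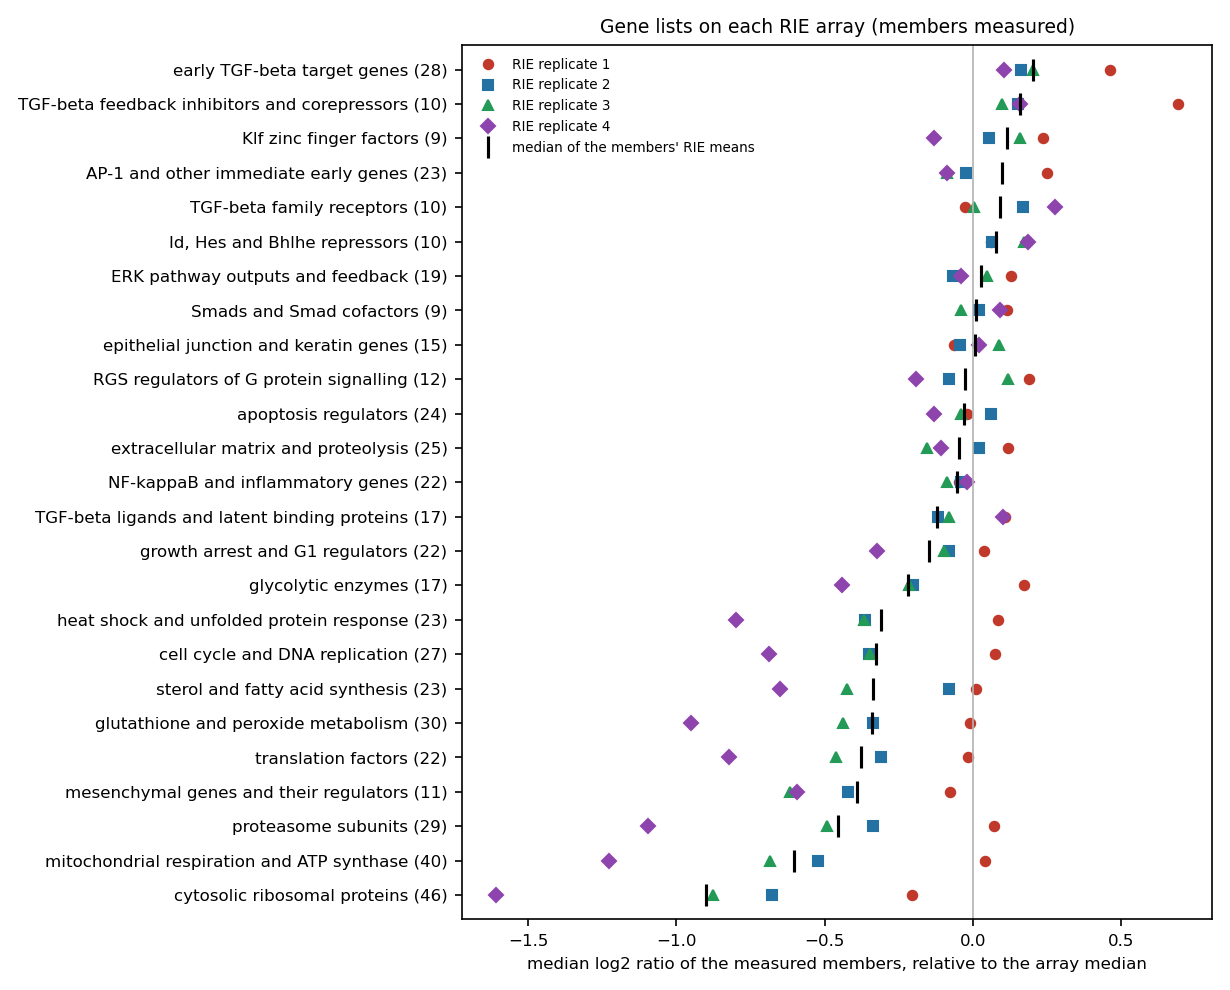
Median log2 ratio of the measured members of 25 gene lists on each RIE array, relative to the array median, with the number of members in brackets. Coloured points are RIE replicates 1 to 4 and black bars the median of the members' RIE means. The lists were chosen with earlier results of these data known. Early TGF-beta targets lie above 0 on all 4 arrays, and ribosomal proteins below 0 on all 4, from -0.21 on replicate 1 to -1.61 on replicate 4.

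The last comparison set RIE against RIE-Ras cells under the same treatment. In limma no feature passed for the difference (0% of those tested), the smallest adjusted p was 0.112, and 1857 features (10.7%) had an unadjusted p under 0.05. Of the 13 RIE calls, 12 had a RIE-Ras mean of the same sign, and Smad7, Gadd45b, Plk2 and Rplp0 also passed in RIE-Ras cells, where 0.419% of features did. The share of all features with one sign in both lines was not counted. Both lines are tested with the same SE, so the shared calls are not independent of each other. The calls were chosen on the RIE arrays, so a RIE mean farther from 0, as in 12 of the 13, is not a result. RIE and RIE-Ras arrays did not overlap for 7 of the 13, against 7.5% of all features, and the difference had an unadjusted p under 0.05 for 10 of the 13, against 10.7%. Nothing is read from these counts for the same reason.

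The size of each difference is given with its 95% interval, which is not adjusted for the number of features. Smad7 was at 1.75, 1.24, 1.25 and 1.32 on RIE-Ras replicates 1 to 4, with the first inside the range of the RIE arrays and the others below it. The difference, RIE-Ras minus RIE, was -0.41 (-1.02 to 0.21). Gadd45b stood higher in RIE-Ras cells, at 2.52, 2.35, 1.95 and 2.60, and differed by 0.69 (0.01 to 1.36, adjusted p = 0.462), with overlapping arrays. Plk2 differed by 0.04 (-0.33 to 0.42) and Rplp0 by 0.15 (-0.28 to 0.58). The other 7 named falls were nearer to 0 in RIE-Ras cells, each with an interval above 0 and none past the threshold for the difference. Rpl27 differed by 1.11 (0.59 to 1.64), Rps24 by 0.99 (0.43 to 1.55) and Rpl32 by 0.95 (0.285 to 1.62). Gstp1 differed by 1.07 (0.21 to 1.92), Nudc by 0.72 (0.25 to 1.18), Rgs2 by 0.54 (0.20 to 0.88) and Coa4 by 0.45 (0.14 to 0.76). All 7 were chosen for low RIE ratios, and their adjusted p-values for the difference lay between 0.228 and 0.392. Bhlhe40 differed by -0.12 (-0.89 to 0.65) and Junb by -0.37 (-1.62 to 0.88), so equal responses and moderate differences both lie inside the intervals.

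No overlap between the arrays of the 2 lines was seen for feature 9197, feature 16683, Clcn7 and Dusp15, which were all chosen on their RIE ratios. Feature 9197 had RIE-Ras values of 0.04, 0.74, 2.36 and 0.25, all below the RIE arrays, and differed by -2.36 (-3.42 to -1.30, adjusted p = 0.228). Feature 16683 lay between -0.09 and 0.42 in RIE-Ras cells and differed by 1.93 (1.22 to 2.64). Clcn7 had RIE-Ras values from -0.22 to 0.49 and differed by 1.19 (0.76 to 1.61), and Dusp15 had values from -0.57 to 0.44 and differed by -1.30 (-1.92 to -0.69). Among pathway genes, Tgif1 was lower in RIE than on all RIE-Ras arrays, which stood between 0.73 and 1.06 (difference 0.57, 0.25 to 0.89), and Tgfb2 was lower in RIE on all arrays (difference 0.76, 0.38 to 1.13). Myc, below 0 in RIE, stood between -0.10 and 0.38 in RIE-Ras cells (difference 0.70, 0.24 to 1.15). All of these had adjusted p-values of 0.228 or above for the difference. Arrays of the lines did not overlap for 1 of 10 feedback genes and 2 of 17 ligands and binding proteins. In the immediate early and growth arrest lists, which both hold Myc, they did not overlap for 3 of 23 and 4 of 22. The share of all features was 7.5%. Ribosomal protein genes had a median of -0.79 in RIE-Ras cells beside the -0.90 in RIE cells, and early TGF-beta targets had 0.41 beside 0.20.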

How the data were processed

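Each deposited value is, per the labels, a fold change of treated over control probe signal on one two-channel array, and the first channel held control RNA. The deposited files were found to hold log2 values, since every fold they give, or its inverse below 1, falls on a step of 0.01 (tolerance 0.01 of a step). No intensities were used; for the dyes, the scanner and the normalization the entry is "not given in the sources used here". Of 20500 features, 12750 had 1 symbol in the platform annotation, updated through the GRCr8 gene table, 5 had several and 7745 none. Arrays were centred on their medians and features of one symbol averaged (2266 symbols), leaving 17402. All 8 arrays were fitted in R 4.3.3 with limma 3.58.1 (lmFit, eBayes), testing each line's mean against 0 and the difference of RIE-Ras and RIE, two-sided, Benjamini-Hochberg over all features. Residual degrees of freedom were 6 and prior ones 2.71. SEs are the moderated ones, which both lines share. The fit was tested on simulated data.

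Members, lists and tests were chosen with earlier results of these data known. Named genes are those past the threshold, 12 on each side with the largest weakest-array ratio, up to 4 per list with one sign on all 4 RIE arrays and the largest means, and a fixed set. The text leaves out some of the last 2 kinds, and 1 gene list is not reported here. Alternatives were no centring, equal spread, quantile normalization, RIE fitted alone, array weights, robust eBayes, other handling of features or extreme ratios, a threshold of 0.10, a block for the replicate number, and fits without single arrays or with 2 averaged. The number of arrays limits the precision.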

Additional observations from a re-analysis of the deposited data

Results flagged for a closer look

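A single array lay far from the other 3 by Dixon's test in 11 of the 133 sets of RIE values tested (8.27%). The nominal rate of the test, 1 in 20, holds for independent sets not chosen by value. Many of these sets were chosen on the same ratios or share genes, so no excess is read from this share. The outlying array was replicate 1 in 6 sets, replicate 2 in 2, replicate 3 in 0 and replicate 4 in 3. Replicate 1 was the high array for Smad7 (2.589, the others at most 1.611), Bhlhe40 (2.645, at most 1.213), Junb (3.628, at most 1.256), Smad6 (1.06, at most 0.4411) and the median of the feedback inhibitor list (0.692, at most 0.158), and the array nearest 0 for Ccl2 (-0.1561). Replicate 2 was low for Tpm3 (-3.945) and Cdc20 (-2.583). Replicate 4 was low for Hes1 (0.2631) and Insig1 (-1.245), and 7.29% of its features lay below -1, against at most 1.74% on the other RIE arrays.

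Every RIE array lay on one side of 0 and every RIE-Ras array on the other for 3 named genes. The difference, RIE-Ras minus RIE, was 0.7687 for Acvr2b, 1.665 for Tpm3 and 0.6229 for Gadd45a. In limma none of the 3 differences passed, with adjusted p-values of 0.273, 0.502 and 0.331.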

How the results depend on the processing

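The 13 calls in RIE cells became 4061 without centring (3963 higher), 87 with equal spread per array (16 higher, 11 of the 13 among them), 95 with quantile normalization (26 higher, all 13 among them), 6539 with array weights, which gave replicate 3 a weight of 8.70 and replicate 1 one of 0.365, and 132 at an adjusted p under 0.10. They became 1 when RIE was fitted alone, 1 with replicates 3 and 4 averaged (Rpl27), between 0 and 30 without one RIE replicate and between 0 and 3 without one RIE-Ras replicate. The median in place of the mean of features, robust eBayes, ratios limited to between -3 and 3 and each feature on its own gave 13, 12, 12 and 11. Calls for the difference between lines, 0 in the fit reported, were 1 without centring, 134 with array weights, 1 with limited ratios, and between 0 and 2 without one array. With the replicate block no feature passed in RIE (0 calls, smallest adjusted p 0.135). Deviations of same-numbered arrays correlated between -0.054 and 0.0654, and those of differently numbered arrays between -0.15 and 0.179. The labels do not say whether same-numbered samples were handled together, and these correlations cannot decide it. Signs turned for Id1 without RIE replicate 3 (-0.00493, and up to 0.137 without another), Id2 and Gadd45a without centring (0.222 and 0.22) and Tgfb1 with array weights (-0.063), none of them past the threshold. The causes were not tested. No depth or signal over background can be read from ratios.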
